A study of Mus musculus with 18 samples.

Results

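Bone marrow of 1-week-old female C3H mice was compared at 24 h and at 6 h after 2 Gy of gamma rays, a comparison that shows how the early response to radiation had changed by the next day. Its members are the 3 arrays labelled 1 week, 2 Gy and 24 h and the 3 arrays labelled 1 week, 2 Gy and 6 h, which makes 6 of the 18 arrays measured. The other 12 arrays are unirradiated marrow of the same age (3 arrays), and unirradiated, 6 h and 24 h marrow of 8-week-old female C3H mice (3 arrays each), all of which share 1 fit with the 6 arrays compared. Irradiated mice of both ages received the same dose at 0.6 Gy/min. The design text gives 3 mice at each time, and the arrays of a group are treated here as 3 mice. Control mice were not sampled separately for 6 h and 24 h, so time of day and time since handling cannot be told apart from time since irradiation. The labels name no allele, transgene or drug, and the tissue is whole marrow, a mixture of blood-forming cells, stroma, vessels and bone-lining cells.

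Ionising radiation breaks DNA and stabilises p53, a transcription factor that switches on genes for cell-cycle arrest, for death of damaged cells and for its own removal. In marrow the dividing precursors of B cells, red cells and granulocytes are the most sensitive, and many die within hours. Dead cells are cleared by resident macrophages, which engulf them through receptors and bridging proteins and recycle the iron of red cell precursors. Stromal cells of the marrow niche secrete the chemokines and growth factors that retain and feed the precursors that survive.

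Each array reports a fluorescence intensity for 41174 probes, and a level below means the log2 signal minus the 75th percentile of that array, so that 0 lies at the percentile and negative values are dimmer. Between 51.1 and 62.1% of probes were well above background on each of the 6 arrays, with 6 h replicate 2 the highest. Raw signal at the 75th percentile ran from 480.0 to 604.2. Arrays correlated at r = 0.992 to 0.996 within the groups and at 0.985 to 0.987 between them. Bone marrow was borne out by its markers: Hba-a1 of red cells, Mpo of granulocyte precursors and Vpreb1 of B-cell precursors exceeded background clearly on each of the 6 arrays. Muscle and cartilage transcript, which marrow taken from a bone can carry, stood far above the rest on 1-week control replicate 2 only. The mean level of 22 muscle genes was 4.23 there, against -1.85 to -0.11 on the 6 arrays compared. That control enters the levels given below for unirradiated marrow and the common estimate of spread, not the difference itself.

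Between 6 h and 24 h, 4236 of 11884 tested genes changed (35.6%), 2107 rising (17.7%) and 2129 falling (17.9%), at a p adjusted over all tested genes under 0.05. Most of these changes were small. The median size of a difference over all genes was 0.20 log2, and 227 genes changed at least 2-fold, of which 99 rose and 128 fell. At 24 h, genes of resident macrophages, complement C1q, niche factors and heat shock proteins were higher than at 6 h, and p53 targets, mitosis genes, red cell genes and genes of B-cell precursors were lower. Because the background is high in each direction, the count of each gene list below is to be set beside 17.7% for rises and 17.9% for falls.

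**Figure D1:**
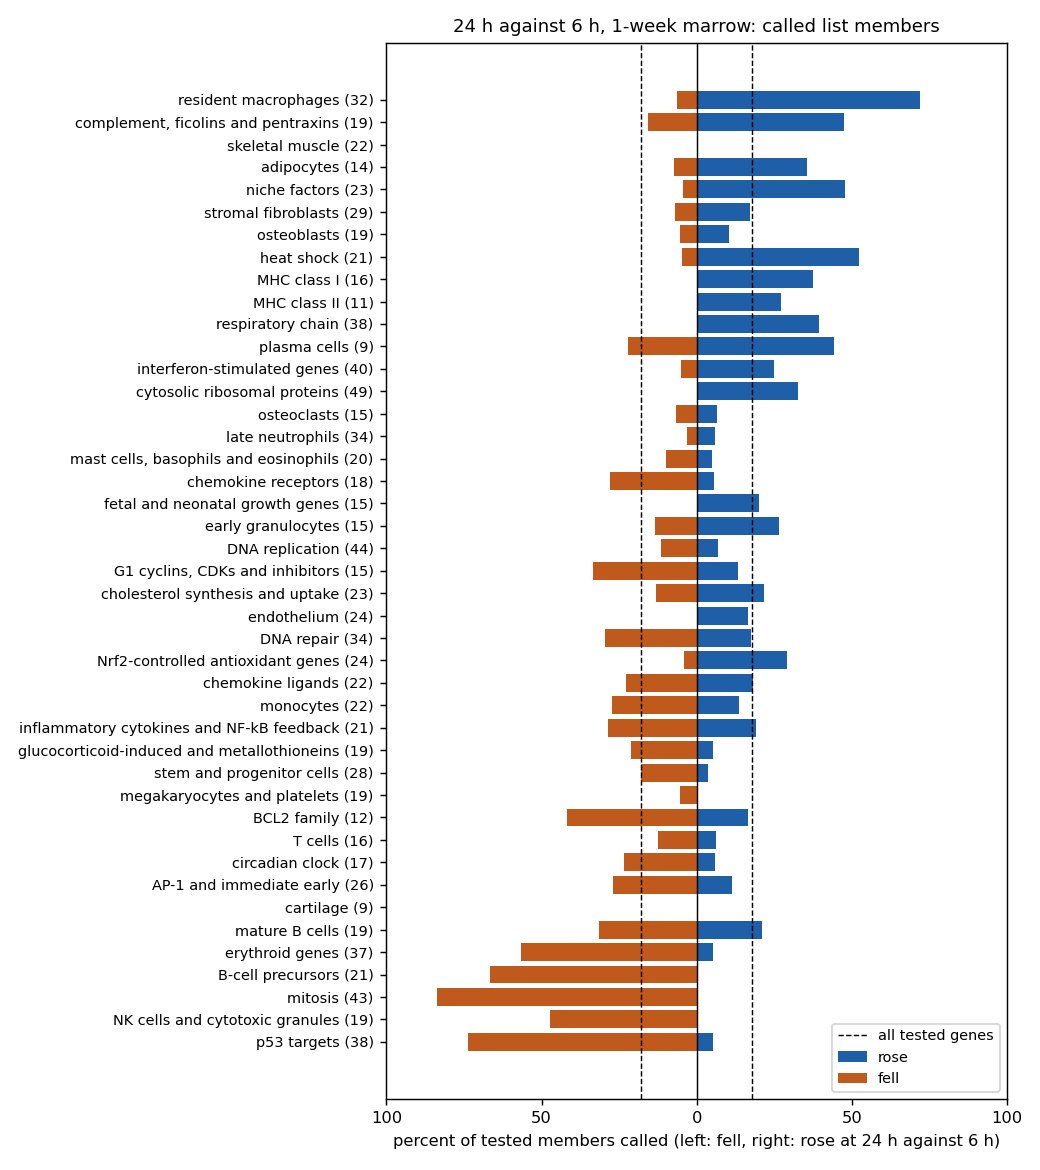
Percent of the tested members of each gene list that rose (right, blue) or fell (left, orange) from 6 h to 24 h in 1-week marrow, ordered by the list's median difference, with the number tested in brackets and dashed lines at the share of all tested genes. Resident macrophages (23 of 32) reach farthest to the right, and mitosis genes (36 of 43) and p53 targets (28 of 38) farthest to the left.

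The p53 response had passed its height by 24 h but had not ended. Of 38 tested p53 targets 28 fell from 6 h to 24 h, 2 rose and 8 did not pass, with a median difference of -0.46 against -0.01 over all tested genes. Levels at 24 h stayed above those of unirradiated marrow for 31 of the 38, and for 26 the 24 h mean lay between those of the control and of 6 h. The mean level of the list was 0.11 to 0.13 in the 3 controls, 1.33 to 1.44 at 6 h and 0.88 to 0.91 at 24 h, so the 3 groups did not overlap. The 6 h and 24 h groups are set against the same 3 controls.

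Bbc3, which encodes the death-promoting BH3-only protein Puma, had levels of 5.38, 5.20 and 5.09 at 6 h and of 4.12, 3.95 and 4.16 at 24 h. Every 6 h array was above every 24 h array, and all 6 were above the control mean of 2.91 ± 0.02 (SD, n = 3). Bbc3 fell by 1.14 log2 (standard error 0.08, adjusted p = 5.24e-08), a 2.21-fold decrease. Ccng1, a cyclin G gene that p53 induces in many tissues, read 3.90, 3.84 and 3.73 at 6 h and 2.96, 2.77 and 2.76 at 24 h. The groups did not overlap, and the fall of 1.99-fold (adjusted p = 1.89e-07) left Ccng1 well over its control level of 0.55 ± 0.14 (SD, n = 3). Ei24, Dcxr and Dglucy, further transcripts that p53 raises, fell 2.08-fold, 2.05-fold and 2.02-fold (adjusted p = 1.43e-07, 1.58e-07 and 9.82e-08).

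Members differed in how far they came down. Mdm2, the ubiquitin ligase that degrades p53, read 2.25, 2.30 and 2.07 at 6 h and 1.80, 1.91 and 1.91 at 24 h, a fall of 0.33 log2 (standard error 0.09, adjusted p = 0.00607) that left it above the control mean of 1.25 ± 0.04 (SD, n = 3). With another background correction Mdm2 missed the threshold (-0.26, adjusted p = 0.0644). Cdkn1a, the p21 inhibitor of cyclin-dependent kinases, read 3.0, 2.62 and 2.24 at 6 h and 2.83, 2.51 and 2.37 at 24 h. Its groups overlapped almost fully, the difference was -0.05 log2 with a standard error of 0.16 (adjusted p = 0.849), and both groups were far above the control mean of 0.29 ± 0.23 (SD, n = 3). The 2 targets that rose were Perp, a desmosome protein (difference 0.51, adjusted p = 0.0058), and Xpc, which recognises damaged DNA in nucleotide excision repair (0.30, adjusted p = 0.00165).

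**Figure D2:**
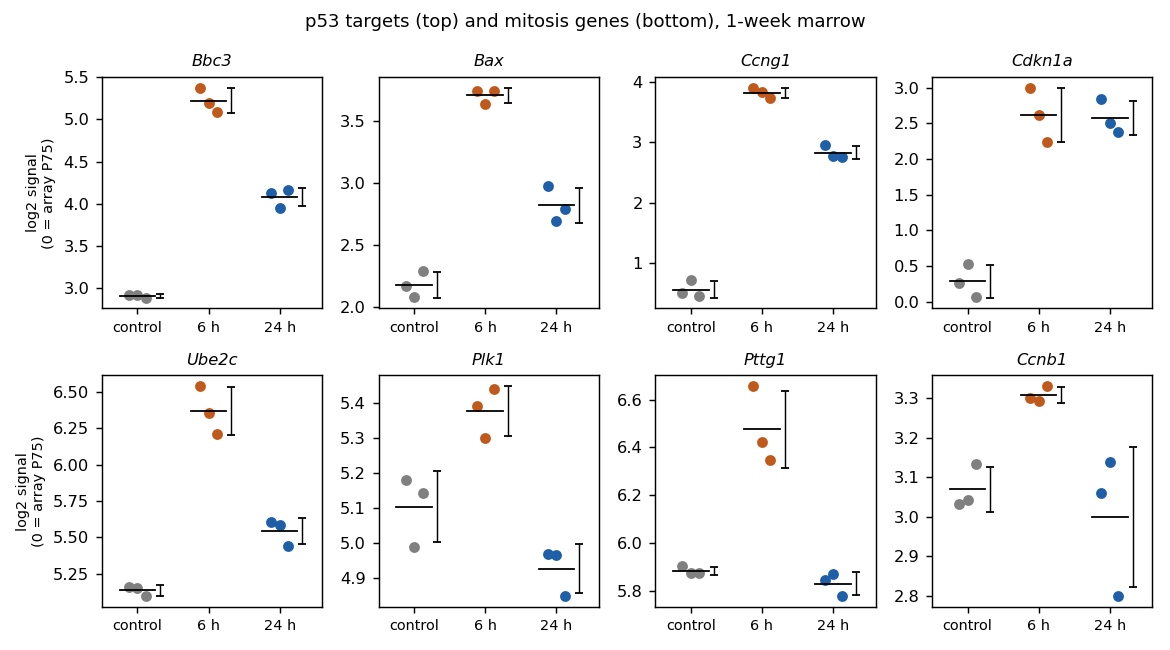
Levels (log2 signal, 0 at the array's 75th percentile) of 4 p53 targets (top) and 4 mitosis genes (bottom) on each 1-week array, with the group mean as a line and the SD as a bar. Bbc3, Bax and Ccng1 sit between control and 6 h at 24 h, Cdkn1a does not separate 6 h from 24 h, and the mitosis genes are highest at 6 h.

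Among 12 tested genes of the BCL2 family, which set the threshold for mitochondrial cell death, 5 fell and 2 rose. Bbc3, the effector Bax (-0.89) and the BH3-only genes Bmf (-0.90) and Bcl2l11 (-0.61), which encodes Bim, fell with adjusted p of 9.78e-06 or less. Bmf was lower at both times than in controls, where its mean was 1.53 ± 0.10 (SD, n = 3), with 0.77, 1.07 and 0.82 at 6 h and -0.10, -0.05 and 0.12 at 24 h. Bmf was thus farther from control at 24 h than at 6 h, whereas Bbc3 and Bax, which stood above control at 6 h, had moved towards it.

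Genes of mitosis were lower at 24 h than at 6 h almost without exception. All 43 tested members had a lower mean at 24 h, 36 of them fell, and none rose, with a median difference of -0.40. At 6 h 41 of the 43 were above the control mean, and at 24 h 27 were below it. Averaged over the list, levels were 2.77 to 2.96 in controls, 3.20 to 3.28 at 6 h and 2.78 to 2.89 at 24 h, so the 24 h arrays lay within the range of the controls and every 6 h array lay above it. The lowest control was replicate 2, the array with muscle and cartilage transcript. Control replicates 1 and 3 had 2.82 and 2.96, and 24 h replicates 1 and 3 (2.80 and 2.78) lay below both.

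Ube2c, the ubiquitin-conjugating enzyme of the anaphase-promoting complex, read 6.54, 6.36 and 6.21 at 6 h and 5.60, 5.59 and 5.44 at 24 h. The groups did not overlap, and the difference of -0.83 (standard error 0.09, adjusted p = 4.38e-06) is a 1.77-fold fall. Cdc20, which activates that complex, read 6.41, 6.40 and 6.41 at 6 h and 5.99, 6.01 and 5.82 at 24 h, a fall of 0.47 (adjusted p = 1.29e-05). The securin gene Pttg1 fell by 0.64 (adjusted p = 2.34e-05) and the mitotic kinase gene Plk1 by 0.45 (adjusted p = 4e-05). Ccnb1, which encodes cyclin B1 and drives entry into mitosis, read 3.30, 3.29 and 3.33 at 6 h and 3.06, 3.14 and 2.80 at 24 h. It fell by 0.31 (adjusted p = 0.0107), but the call rests on the lowest array: without 24 h replicate 3 the difference is -0.21 with an adjusted p of 0.0648.

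The promoters of these genes are shown because the members moved together and because mitosis genes share short promoter words. The cell cycle homology region, or CHR, was searched as TTTGAA or TTCGAA and the CCAAT box as CCAAT, on both strands, in RefSeq promoter windows (GRCm38.p6) from 250 bases before to 50 after each start. A CHR word was present in 30 of 38 windows of 36 members (78.9%), against 19.2% of 32851 windows of all genes, and CCAAT in 30 of 38 (78.9%) against 37.4%. An excess of words was not limited to lists that moved together. Of 42 windows of replication genes, which moved both ways, 14 held an E2F word (33.3%), against 2.26% of all windows. The E2F words were TTTGGCGC, TTTCCCGC, TTTCGCGC and TTTGCCGC. The clock word CACGTG was in 4 of 21 windows of clock genes (19%), against 7.15%. These matches describe the letters and do not show binding. Below are the 120 bases before the start of the 4 members with the smallest adjusted p among those with 1 window and a CHR word in that stretch, written 5′ to 3′ on the gene's strand, with CHR and CCAAT words of either strand in capitals. They are chr2:164769809-164769928 (plus strand) for Ube2c, chr4:118437344-118437463 (minus strand) for Cdc20, chr8:22185820-22185939 (minus strand) for Ckap2 and chr19:37376262-37376381 (plus strand) for Kif11.
Ube2c: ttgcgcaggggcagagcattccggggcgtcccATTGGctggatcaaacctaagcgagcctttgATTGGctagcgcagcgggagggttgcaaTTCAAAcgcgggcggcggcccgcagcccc
Cdc20: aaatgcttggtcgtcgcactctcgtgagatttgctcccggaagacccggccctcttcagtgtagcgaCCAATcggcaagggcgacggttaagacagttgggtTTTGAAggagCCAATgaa
Ckap2: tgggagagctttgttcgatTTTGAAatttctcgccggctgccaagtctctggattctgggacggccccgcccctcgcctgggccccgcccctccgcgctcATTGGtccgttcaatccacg
Kif11: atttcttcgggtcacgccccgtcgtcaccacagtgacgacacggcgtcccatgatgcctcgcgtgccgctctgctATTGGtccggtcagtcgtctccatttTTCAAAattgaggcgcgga
Ckap2, a spindle protein gene, fell by 0.49 (adjusted p = 0.000236), and Kif11, the motor that pushes spindle poles apart, by 0.58 (adjusted p = 0.000253).

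Genes of DNA replication did not follow the mitosis genes. Of 44 tested members 3 rose (6.82%) and 5 fell (11.4%), shares below the background, with a median difference of 0.06. E2f2 and E2f1, transcription factors of the G1/S transition, fell by 0.37 and 0.29 (adjusted p = 0.00115 and 0.00125), and Dut, which keeps uracil out of DNA, and Chaf1b, a histone chaperone of the fork, rose by 0.34 and 0.43 (adjusted p = 0.00214 and 0.00307). The falls number 3 without 6 h replicate 1 and 2 without 6 h replicate 3 or 24 h replicate 3, and with the 6 arrays fitted alone 7 rose and 3 fell. Of 34 DNA repair genes 10 fell and 6 rose, led by the histone gene H2ax (-0.65, adjusted p = 3.21e-06) and the checkpoint kinase gene Chek2 (-0.43, adjusted p = 0.000527). These counts lean on single arrays: the rises number 1 without 6 h replicate 1 or 2, 2 without 24 h replicate 1 and 3 without 24 h replicate 2, and the falls 5 without 24 h replicate 3. Among 15 G1 cyclins, kinases and inhibitors 5 fell and 2 rose. The kinase inhibitors Cdkn2c (-0.90), Cdkn2d (-0.76) and Cdkn1b (-0.44) fell and Ccnd2, cyclin D2, rose (0.62), with adjusted p of 0.000151 or less.

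Resident macrophage genes made the clearest rise. Of 32 tested members 23 rose, 2 fell and 7 did not pass, with a median difference of 0.81 log2. The rise was no plain return to the control level: 19 of the 32 had a mean below control at 6 h and above control at 24 h, and 30 were above control at 24 h. The mean level of the list was 0.17 to 0.39 in controls, -0.14 to 0.14 at 6 h and 0.78 to 0.84 at 24 h. In whole tissue, more or fewer cells of a type cannot be told apart from more or less RNA per cell, here and for every cell type below.

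Fcna, a ficolin that macrophages secrete to bind microbial sugars, read -0.66, -0.18 and -0.21 at 6 h and 1.91, 1.97 and 1.90 at 24 h. The 24 h arrays were nearly level (SD 0.04) and above the control mean of 1.07 ± 0.12 (SD, n = 3), and the rise was 4.85-fold (standard error 0.11 log2, adjusted p = 1.58e-09). Timd4, a receptor for the phosphatidylserine that dying cells expose, read -3.74, -3.90 and -3.65 at 6 h and -1.84, -1.83 and -1.90 at 24 h, a 3.75-fold rise (adjusted p = 6.93e-09). Cd5l, a secreted protein of tissue macrophages, rose 4.16-fold (adjusted p = 2.43e-07). For both genes no 6 h array reached a 24 h array, and the control mean lay between the groups.

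The 3 chains of C1q, the first component of the classical complement pathway and a bridge between dying cells and phagocytes, rose together, from genes that all lie on chromosome 4. C1qa read -1.14, -0.43 and -0.58 at 6 h and 1.06, 0.97 and 1.06 at 24 h. C1qb read -1.21, -0.60 and -0.96 and then 0.86, 0.84 and 0.87. C1qc read 0.54, 1.17 and 1.02 and then 2.92, 2.94 and 2.98. In each the first 6 h replicate was the lowest array and the 24 h arrays were nearly level, and the rises were 3.36-fold, 3.44-fold and 4.11-fold (adjusted p = 1.81e-07, 2.68e-08 and 2.68e-08).

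Hmox1, the heme oxygenase that breaks down heme from red cells, followed another course. It read 2.81, 2.94 and 2.94 at 6 h, near the control mean of 2.89 ± 0.09 (SD, n = 3), and 4.71, 4.61 and 4.67 at 24 h, a 3.40-fold rise (adjusted p = 1.58e-09). Slc40a1, the exporter that releases iron from macrophages, rose 1.65-fold (adjusted p = 8.05e-07), and Spic, the transcription factor of iron-recycling macrophages, 2.23-fold (adjusted p = 5.15e-08). The 2 members that fell were Ctsb, a lysosomal protease gene (-0.21, adjusted p = 0.017), and Clec4f, a lectin gene (adjusted p = 0.045) whose signal was well above background on 1 of the 6 arrays, so that no fold is given. Ctsb misses the threshold without 24 h replicate 1 or 2 (adjusted p = 0.0504 and 0.0574), and Clec4f misses it whichever array but 6 h replicate 3 is left out (0.0568 to 0.164).

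**Figure D3:**
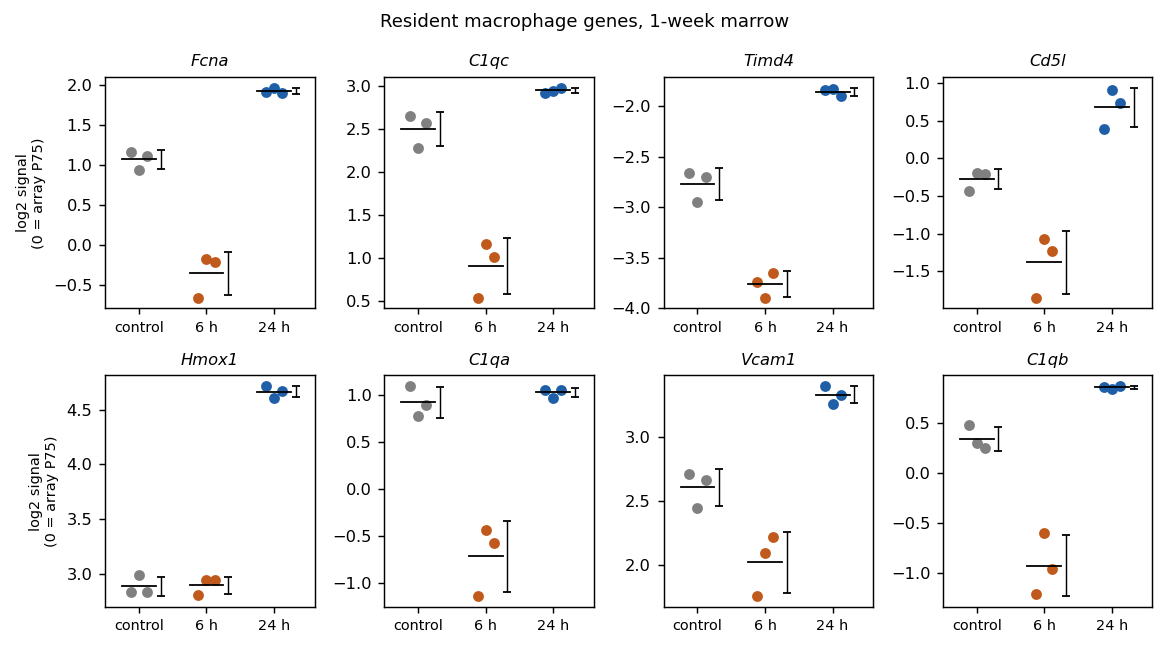
Levels (log2 signal, 0 at the array's 75th percentile) of 8 resident macrophage genes on each 1-week array, with the group mean as a line and the SD as a bar. In every panel the 3 arrays at 24 h are above the 3 arrays at 6 h, and in all but Hmox1 the 6 h arrays are also below the controls.

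Of 19 genes of complement, ficolins and pentraxins 9 rose and 3 fell, a list that holds Fcna and the C1q genes too. Ptx3, a pentraxin released in inflammation, read -1.22, -1.03 and -0.66 at 6 h and 1.24, 0.82 and 1.05 at 24 h, a 4.02-fold rise (adjusted p = 0.000103) on top of a control mean of -1.98 ± 0.04 (SD, n = 3), and its other probe rose by 1.86 log2. Fcnb, the ficolin of granulocyte precursors, fell by 0.62 (adjusted p = 0.000118), the opposite of Fcna. Monocyte genes moved both ways, with 3 of 22 rising and 6 falling. Ms4a7 and the high-affinity Fc receptor gene Fcgr1, which macrophages also express, rose by 1.49 and 1.01 (adjusted p = 1.36e-07 and 1.83e-06), and the endotoxin co-receptor gene Cd14 fell by 0.58 (adjusted p = 6.33e-05). Without 24 h replicate 2 the number of monocyte genes that fell is 3.

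Chemokines, which the study's title names, moved in both directions. Of 22 tested ligands 4 rose (18.2%) and 5 fell (22.7%), shares near the background, with a median difference of -0.05. Ccl4, Ccl7, Ccl2, Cxcl16 and Ccl3, most of them made by activated myeloid cells, fell, and Cxcl14, Ccl8, Cxcl12 and Ccl6 rose. A further 12 ligands with a probe, Cxcl1, Cxcl2 and Cxcl5 among them, were left out by the filter on dim genes and outlying spots.

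Ccl4, which attracts lymphocytes and monocytes, read -2.09, -1.74 and -1.80 at 6 h and -3.95, -3.39 and -3.24 at 24 h, a 3.13-fold fall (adjusted p = 3.93e-06) to below its control mean of -2.57 ± 0.24 (SD, n = 3). Ccl2, the main attractant of monocytes, read -1.63, -1.74 and -1.60 and then -2.38, -2.37 and -2.35, a 1.64-fold fall (adjusted p = 8.5e-05) that stopped above its control mean of -3.73 ± 0.09 (SD, n = 3). The 6 h and 24 h arrays of both genes did not overlap. Cxcl16 and Ccl3 fell by 0.64 and 0.41 (adjusted p = 0.00258 and 0.0272), and Ccl3, whose arrays overlapped, misses the threshold without 6 h replicate 1, 6 h replicate 2 or 24 h replicate 1 (0.0834, 0.12 and 0.138). Ccl7, a relative of Ccl2, was well above background on 1 array at 6 h and on none at 24 h, where it was at least 1.30-fold lower (adjusted p = 0.00119). A bound of this kind sets the mean of the higher group against the other group's arrays, each raised to the weakest signal that was well above background on it.

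Cxcl12, the stromal chemokine that retains stem cells and B-cell precursors in marrow, read 4.29, 4.34 and 4.70 at 6 h and 5.70, 5.40 and 5.53 at 24 h, a 2.14-fold rise (adjusted p = 6.06e-05) to above its control mean of 4.68 ± 0.23 (SD, n = 3). Cxcl14, a chemokine of epithelia and stroma, read -0.28, -0.08 and 0.30 and then 1.58, 1.17 and 1.57, a 2.75-fold rise (adjusted p = 5.29e-06) from a 6 h level near the control mean of -0.03 ± 0.14 (SD, n = 3). For both, each 24 h array was above each 6 h array. Ccl6 rose by 0.35 (adjusted p = 0.00756), and Ccl8 (adjusted p = 0.01) was not well above background on any of the 6 arrays, so that it has no fold. Ccl8 misses the threshold without 6 h replicate 3 (adjusted p = 0.0542). Of 18 chemokine receptors 5 fell (Ccrl2, Ackr1, Ccr2, Ccr9 and Cxcr4) and 1 rose (Cxcr5). Cxcr4, the receptor of Cxcl12, fell by 0.27 (adjusted p = 0.028) with overlapping arrays, 2.09, 2.15 and 1.74 at 6 h against 1.70, 1.70 and 1.78 at 24 h. Ccrl2 and Ackr1 fell by 0.62 and 0.50 (adjusted p = 0.000128 and 0.000911) with no overlap. The other 4 receptors, which had adjusted p of 0.0106 to 0.042, miss the threshold in some leave-one-out fits, and so the counts lean on single arrays: the falls number 3 without 6 h replicate 1, 6 h replicate 2 or 24 h replicate 1 and 2 without 24 h replicate 2, and the rises 3 without 6 h replicate 2 and 0 without 6 h replicate 1 or 24 h replicate 1.

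Of 21 inflammatory cytokines and feedback regulators of NF-kB 4 rose and 6 fell. Il18, a cytokine of macrophages that needs inflammasome cleavage, read -0.97, -0.82 and -0.88 at 6 h and 0.53, 0.47 and 0.39 at 24 h, a 2.56-fold rise (adjusted p = 7.49e-09) with no overlap. Nfkb2, the precursor of the p52 subunit, and Tnfaip3, the A20 brake on NF-kB, fell by 0.74 and 0.46 (adjusted p = 2.71e-06 and 0.000117). Among 26 immediate early genes of the AP-1 class 7 fell and 3 rose, with the stress factor gene Atf3 falling most of the members named (-1.30, adjusted p = 1.63e-06), Jun falling by 0.66 (adjusted p = 5.92e-05) and Fosb rising by 1.19 (adjusted p = 0.00139).

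Niche factors were higher at 24 h. Of 23 tested members 11 rose, 1 fell and 11 did not pass, with a median difference of 0.32. Igf1, a growth factor of macrophages and stroma, read -1.13, -0.84 and -0.75 at 6 h and 0.90, 0.80 and 0.86 at 24 h, a 3.38-fold rise (adjusted p = 3.35e-09), and its other probe rose by 0.44 log2. Bmp4, a bone morphogenetic protein, read -2.18, -2.16 and -2.10 and then -0.79, -0.96 and -0.67, a 2.54-fold rise (adjusted p = 1.93e-06) from a control mean of -3.11 ± 0.12 (SD, n = 3). Bmp4 was thus above control already at 6 h and higher still at 24 h, whereas Igf1 was below control at 6 h and above it at 24 h.

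Vcam1, the adhesion molecule that macrophages and stroma present to blood-forming cells, rose 2.47-fold (adjusted p = 2.96e-07), and Sfrp1, a secreted Wnt antagonist, 3.20-fold (adjusted p = 5.86e-06). Sfrp2, a relative of Sfrp1, was not well above background on any 6 h array, so only a lower bound holds: it was at least 2.26-fold higher at 24 h (adjusted p = 1.34e-05). Kitl, stem cell factor, rose by 0.81 (adjusted p = 0.000935). The member that fell was Fgf2, with 6 h levels of -0.97, -1.17 and -2.11 and 24 h levels of -4.29, -4.93 and -4.05.

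Other genes of solid tissue were measured beside these. Of 29 genes of stromal fibroblasts 5 rose (17.2%) and 2 fell, led by Fstl1 (1.05, adjusted p = 4.95e-06) and by Igfbp5, which fell by 1.29 (adjusted p = 5.39e-05). The stromal rises number 3 without 6 h replicate 1, 24 h replicate 2 or 24 h replicate 3, and 8 when the 6 arrays are fitted alone. Of 14 adipocyte genes 5 rose and 1 fell, with Lpl and Pparg, lipoprotein lipase and the master regulator of fat cells, at 0.78 and 0.74 (adjusted p = 9.6e-07 and 1.82e-05), and 3 rose without 24 h replicate 1. Slc2a4 was the member that fell (-0.66, adjusted p = 0.000475). Adipoq did not pass (-0.26, adjusted p = 0.339), and of the 14 genes 10 were higher and 4 lower at 24 h. None of 22 muscle genes and none of 9 cartilage genes passed the test in the limma fit. A call was hard to reach, because 1-week control replicate 2 widens their estimate of spread. Comp of cartilage, for example, had a control SD of 3.90 and a standard error of 1.28. Of the muscle genes 18 were higher and 4 lower at 24 h, with a median difference of 0.44. The highest, 3.02, was the highest of all tested genes. Of the cartilage genes 4 were higher and 5 lower (median -0.26). The mean level of the muscle list was -1.85 to -0.93 at 6 h and -1.81 to -0.11 at 24 h, and that of the cartilage list -2.41 to -1.65 and -2.50 to -1.33. Osteoblast genes (2 of 19 rose, 1 fell) had a mean level of -0.22 to -0.03 at 6 h and 0.00 to 0.34 at 24 h. How far the share of such tissue in each sample moved the niche and adipocyte genes was not tested.

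B-cell precursors went on losing transcript after 6 h. Of 21 tested members 14 fell and none rose, with a median difference of -0.38, and 18 were below control at 6 h and lower again at 24 h. Averaged over the list, levels were 1.64 to 1.85 in controls, 0.49 to 0.71 at 6 h and 0.04 to 0.15 at 24 h. Dntt, the polymerase that adds nucleotides to joining receptor genes, read 2.79, 3.06 and 2.98 at 6 h and 1.63, 1.80 and 1.77 at 24 h, from a control mean of 4.95 ± 0.18 (SD, n = 3). Rag1, the recombinase of those genes, read 0.24, 0.43 and 0.18 and then -0.88, -0.88 and -0.86, from a control mean of 2.13 ± 0.20 (SD, n = 3). Their falls from 6 h to 24 h were 2.31-fold and 2.23-fold (adjusted p = 4.31e-07 and 6.29e-07), and neither pair of groups overlapped. Lef1, a transcription factor of early B cells, fell by 0.83 (adjusted p = 0.000103).

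Cd79a, a signalling chain of the B-cell receptor, did not pass (0.05, standard error 0.29, adjusted p = 0.918), with -3.20, -1.75 and -3.22 at 6 h against -2.20, -2.87 and -2.95 at 24 h. Without 6 h replicate 2, which stood apart, the difference is 0.53 (adjusted p = 0.0475). Genes of mature B cells were mixed, 4 of 19 rising and 6 falling. Fcer2a, the low-affinity receptor for IgE, fell by 1.09 (adjusted p = 7.77e-05), and the invariant chain gene Cd74, shared with macrophages and dendritic cells, rose by 0.47 (adjusted p = 0.000992). The fall of Fcer2a started above control and stopped above it. Its signal was well above background on no control array, and the limma fit put 6 h and 24 h above control (adjusted p = 1.56e-09 and 3.77e-07). Without 6 h replicate 2 or 24 h replicate 1 the falls number 3. Of 9 plasma cell genes 4 rose and 2 fell, with Mzb1, a chaperone of antibody secretion that precursors of B cells also carry, falling 1.99-fold (adjusted p = 1.13e-07) and Fkbp11 rising 2.11-fold (adjusted p = 1.26e-06). The other probe of Fkbp11 moved the opposite way, by -0.72 log2, and over both probes the difference was 0.18 (adjusted p = 0.531).

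Of 19 genes of NK cells and cytotoxic granules 9 fell and none rose, with a median difference of -0.43. Gzma, a protease of the granules, read -1.47, -1.46 and -1.75 at 6 h and -2.47, -2.51 and -1.92 at 24 h, a fall of 0.74 (adjusted p = 0.00046), and Klrb1c, the receptor NK1.1, fell by 0.96 (adjusted p = 0.000214). Most of these genes are dim, and the 9 falls become 3 of 8 genes under a stricter filter on dim genes and 5 without 6 h replicate 2, 24 h replicate 1 or 24 h replicate 2. T-cell genes moved little: 2 of 16 fell, 1 rose, and Cd3e, of the T-cell receptor complex, did not pass (0.73, standard error 0.36, adjusted p = 0.124). Without 6 h replicate 2 the difference in Cd3e is 1.03 (adjusted p = 0.0489), and with quantile normalisation 1.05 (adjusted p = 0.0256).

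Red cell genes came down from a 6 h height. Of 37 tested members 21 fell and 2 rose, with a median difference of -0.34. All 37 were above control at 6 h, and 27 lay between control and 6 h at 24 h. Over the whole list the mean level was 4.76 to 4.78 in controls, 5.32 to 5.44 at 6 h and 5.07 to 5.11 at 24 h, with no overlap between the groups. Ank1 and Sptb, ankyrin and spectrin of the red cell membrane skeleton, fell by 0.86 and 0.80 (adjusted p = 1.16e-05 and 8.53e-06). Ank1 read 6.75, 6.66 and 6.69 at 6 h and 5.89, 5.89 and 5.73 at 24 h, and its 4 other probes fell less, by -0.37 to -0.27. Trim10 and Tspo2, both of late red cell precursors, fell by 0.69 and 0.72 (adjusted p = 8.72e-07 and 1.25e-05). The 2 that rose were Car1, carbonic anhydrase (0.68, adjusted p = 0.00021), and Bpgm, which makes the regulator of oxygen release (0.28, adjusted p = 0.0382), which misses the threshold whichever array but 24 h replicate 2 is left out (0.0633 to 0.149).

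Of 34 tested late neutrophil genes 2 rose (5.88%) and 1 fell (2.94%), shares below the background, and all 34 were above control at both times. With slide as a block 9 of them rose, and 5 without 6 h replicate 1. Of 15 early granulocyte genes 4 rose (26.7%) and 2 fell (13.3%). Ctsc, the protease that activates granule enzymes, rose by 0.76 (adjusted p = 1.03e-06), and Ctsg, one of the enzymes it activates, by 0.50 (adjusted p = 0.000341). Mpo, myeloperoxidase, did not pass, with 7.64, 7.69 and 7.81 at 6 h and 7.73, 7.73 and 7.58 at 24 h. Of 28 genes of stem and progenitor cells 5 fell (17.9%) and 1 rose (3.57%), shares at the background for falls and below it for rises. Among the falls were the transcription factor gene Meis1 (-0.97, adjusted p = 0.00075) and the surface antigen gene Ly6a (-0.71, adjusted p = 0.000917). Of 19 megakaryocyte genes none rose and 1, Nrgn, fell (-0.56, adjusted p = 0.0171), a call lost without 6 h replicate 3 or 24 h replicate 1 (0.0814 and 0.0567).

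Genes of heat shock proteins and of the mitochondrial respiratory chain, nearly all below control at 6 h, rose in part. Of 21 heat shock genes 11 rose, 1 fell and 9 did not pass, with a median difference of 0.25, and 18 of the 21 were below control at 6 h and 13 at 24 h. Hspd1 and Hspe1, the partner chaperonins of mitochondria, read 4.55, 4.66 and 4.60 and 3.69, 3.66 and 3.73 at 6 h, and 5.58, 5.30 and 5.26 and 4.44, 4.30 and 4.14 at 24 h. Neither gene's groups overlapped, and the rises of 1.72-fold and 1.52-fold (adjusted p = 1.48e-06 and 1.32e-05) brought them close to control means of 5.59 ± 0.10 and 4.32 ± 0.02 (SD, n = 3). Hspa4 and Hsp90aa1, cytosolic chaperones, rose by 0.76 and 0.65 (adjusted p = 8.05e-07 and 1.38e-05). The stress-induced Hspa1a and Hspa1b, near-identical copies whose probes can share signal, did not pass (-0.10 and -0.30, adjusted p = 0.692 and 0.344).

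Hspd1 and Hspe1 lie on opposite strands and start close together. RefSeq gives Hspd1 a start at 55087932, 216 bases before that of Hspe1 at 55088148, and another at 55088243, past the start of Hspe1, from which the pair overlap. The heat shock element was searched as TTC, GAA and TTC in a row with any 2 bases between neighbours, on both strands. It was present in 5 of 23 windows of 17 tested heat shock genes (21.7%), against 0.603% of all 32851 windows. The 120 bases before the start of Hspe1, chr1:55088028-55088147 on the plus strand (RefSeq, GRCm38.p6), are shown because they lie between the first of these starts and that of Hspe1 and hold 2 overlapping matches, which cover the 18 bases in capitals.
Hspe1: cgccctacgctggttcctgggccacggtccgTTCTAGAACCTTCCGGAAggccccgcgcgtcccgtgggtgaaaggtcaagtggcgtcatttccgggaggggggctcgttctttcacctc

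All 38 genes of the respiratory chain were below control at 6 h, and from there 15 rose, none fell and 23 did not pass, with a median difference of 0.19. At 24 h 30 of the 38 were still below control. Cycs, cytochrome c, read 4.61, 4.46 and 4.57 at 6 h and 5.26, 5.20 and 5.04 at 24 h, a rise of 0.62 (adjusted p = 1.08e-05), and Cox5a, a subunit of cytochrome c oxidase, rose by 0.44 (adjusted p = 2.21e-05). Of 49 genes of cytosolic ribosomal proteins 16 rose and none fell, each by little (median difference 0.12), and the rises number 8 without 6 h replicate 2 and 7 without 24 h replicate 1. Of 24 Nrf2-controlled antioxidant genes 7 rose and 1 fell, with Hmox1 the largest rise, Prdx1, a peroxiredoxin, at 0.53 (adjusted p = 7.82e-06) and Gpx2, a glutathione peroxidase, at -0.85 (adjusted p = 2.02e-05). In cholesterol synthesis 5 of 23 rose and 3 fell, the rises numbering 3 without 6 h replicate 1 or 24 h replicate 2 and 2 without 24 h replicate 1. Fdft1, squalene synthase, read 1.97, 1.88 and 1.94 at 6 h and 0.87, 1.03 and 0.85 at 24 h, a fall of 1.02 (adjusted p = 9.41e-09) on an otherwise mixed list. Per1, a clock gene that glucocorticoids also induce, fell by 0.86 (adjusted p = 0.00124) with -0.37, -0.15 and 0.51 at 6 h and -0.74, -0.80 and -1.04 at 24 h, among 17 clock genes of which 4 fell and 1 rose.

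The largest rises outside these lists, given here with Plin1 of the adipocyte list, were of genes with varied roles. Ica1l, related to an islet cell autoantigen, read 0.49, 0.84 and 0.53 at 6 h and 3.13, 3.34 and 3.49 at 24 h, a 6.50-fold rise (adjusted p = 3.83e-06) from below to above its control mean of 2.23 ± 0.43 (SD, n = 3). Gbp8, a guanylate-binding protein, read -3.56, -2.91 and -3.51 and then -0.73, -0.71 and -0.79, a 5.99-fold rise (adjusted p = 1.58e-09). Kcnj10, a potassium channel gene, Col8a1, a collagen gene, and Rbp4, the carrier of retinol, rose 3.83-fold, 4.12-fold and 3.81-fold (adjusted p = 3.46e-08, 1.83e-05 and 0.000158). None of the 5 had overlapping groups. Frmd3, Angptl7, Ido2 and Plin1 were not well above background on any 6 h array and were at least 3.87-fold, 2.10-fold, 2.66-fold and 1.92-fold higher at 24 h. Genes like Plin1, well above background on 0 controls and 3 arrays at 24 h, could pass the filter through the 24 h group alone. Plin1 misses the threshold without 24 h replicate 1 (adjusted p = 0.0671), and Ido2 misses it without 6 h replicate 3, 24 h replicate 1 or 24 h replicate 2 (0.0894, 0.0761 and 0.0732).

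The largest falls were of another kind, in that single probes were high at 6 h alone. Ddx25, a helicase known from testis, read 7.28, 6.50 and 6.26 at 6 h and 2.79, 2.21 and 2.65 at 24 h, with a control mean of 2.71 ± 0.72 (SD, n = 3), a 17.5-fold fall (adjusted p = 1.26e-05). Tgm5, Pdpk1 and Trim55 fell 17.1-fold, 16.1-fold and 15-fold, and Myo1e, Lifr, Itga1, Plcd3, Zc3h3 and Fgf2 by -3.77 to -2.86 log2. Their control means, such as -3.06 for Tgm5, 2.40 for Pdpk1 and 1.68 for Trim55, lay beside their 24 h means of -3.14, 2.36 and 1.60. Aqp5, Usp26, Olfr945, H2ap and Scgb2b27 were not well above background on any 24 h array and were at least 11.3-fold, 3.69-fold, 2.67-fold, 2.52-fold and 1.79-fold lower there. Because 1 group well above background was enough for a test, such genes could enter through their 6 h arrays alone. H2ap was well above background on 0 controls, 3 arrays at 6 h and 0 at 24 h. For these genes being high at 6 h alone is partly set by the filter. Scgb2b27 misses the threshold without 6 h replicate 2 or 3 or 24 h replicate 1 or 2 (adjusted p = 0.0512, 0.0658, 0.0621 and 0.0727).

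Where a further probe was present, it did not follow. The other probes of Pdpk1, a kinase gene, differed by -0.29 and -0.14 log2, and those of Myo1e, Lifr, Itga1 and Zc3h3 by -0.03, 0.32, -0.13 and -0.05. Of 128 genes that fell at least 2-fold 16 have other probes, and in 6 of the 16 none of these fell by as much as 0.25 log2. Of 99 that rose at least 2-fold 20 have other probes, and in 1 of the 20 none rose by that much. Which transcripts the high probes detect was not tested.

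**Figure D4:**
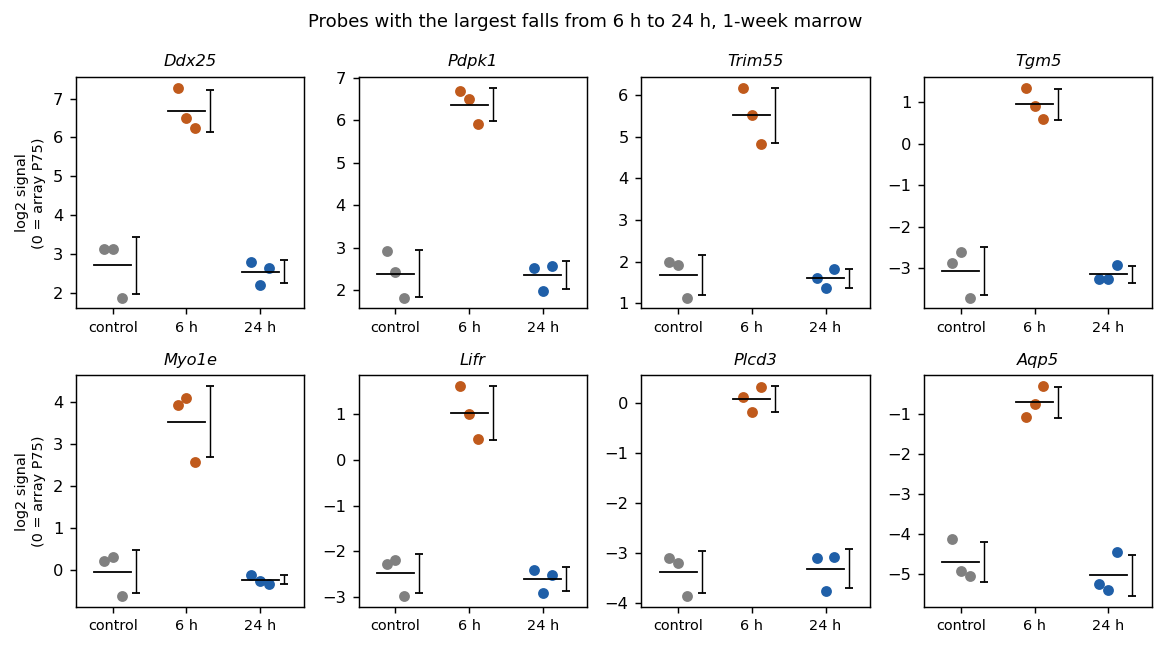
Levels (log2 signal, 0 at the array's 75th percentile) of 8 probes among the largest falls from 6 h to 24 h, on each 1-week array, with the group mean as a line and the SD as a bar. In each panel the 3 arrays at 6 h stand above the others, and the 24 h arrays lie at the level of the controls.

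The same times were compared in 8-week marrow to see where 1-week marrow differed. There 3832 genes rose (32.2%) and 1968 fell (16.6%), and the difference between 24 h and 6 h itself differed between the ages for 2350 genes (19.8%), by a test of the interaction. For 1792 of these it was higher at 8 weeks and for 558 lower. Interferon-stimulated genes were among the lists that differed. At 1 week 10 of 40 rose and 2 fell (median difference 0.13), at 8 weeks 33 rose and none fell (median 0.79), and for 25 the difference between ages passed the test, each time higher at 8 weeks. Ifit3, which blocks translation of viral RNA, read -2.44, -2.49 and -2.70 at 6 h and -0.95, -0.78 and -0.99 at 24 h at 1 week, a rise of 1.63 (adjusted p = 7.89e-06). At 8 weeks it rose by 2.76, and the 2 rises differed by 1.13 (adjusted p = 0.0091).

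Macrophage genes rose at both ages, with 26 of 32 rising at 8 weeks, but by differing amounts. For 16 the ages differed, 9 with the lower difference at 8 weeks and 7 with the higher. Fcna rose by 2.28 at 1 week and 0.87 at 8 weeks, Timd4 by 1.91 and 0.56 and Hmox1 by 1.77 and 0.66 (adjusted p of the difference = 0.00012, 0.00013 and 0.000126). At 8 weeks Fcna was above its control mean of 2.53 at both times, with means of 3.05 at 6 h and 3.92 at 24 h. At 1 week its 6 h level was below control. For C1qa, with 1.75 and 1.21, the difference of -0.54 did not pass (adjusted p = 0.0577). Mitosis genes fell at both ages, 36 and 31 of 43, and 7 differed, among them Plk1, which fell by 0.45 at 1 week and differed by -0.03 at 8 weeks (adjusted p of the difference = 0.00458). For p53 targets 28 and 25 of 38 fell, and 7 differed between the ages. For both lists the share that differed was below the 19.8% of all tested genes.

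Lymphoid and chemokine genes differed in both ways. Of 19 mature B-cell genes 12 differed, all of them lower at 8 weeks, where 15 fell and none rose. Dntt fell by 1.21 at 1 week but differed by -0.20 at 8 weeks (adjusted p of the difference = 0.000526), whereas Rag1 fell by 1.16 and 1.31 (0.505). Ccl2 and Ccl4 fell at 1 week by 0.71 and 1.65 and differed by 0.11 and -0.19 at 8 weeks (adjusted p of the difference = 0.00209 and 0.00145). For Cxcl12 the rises of 1.1 and 1.29 were not distinguished (0.579). Early granulocyte genes (10 of 15) and replication genes (12 of 44) also differed, with 28 replication genes rising at 8 weeks against 3 at 1 week.

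**Figure D5:**
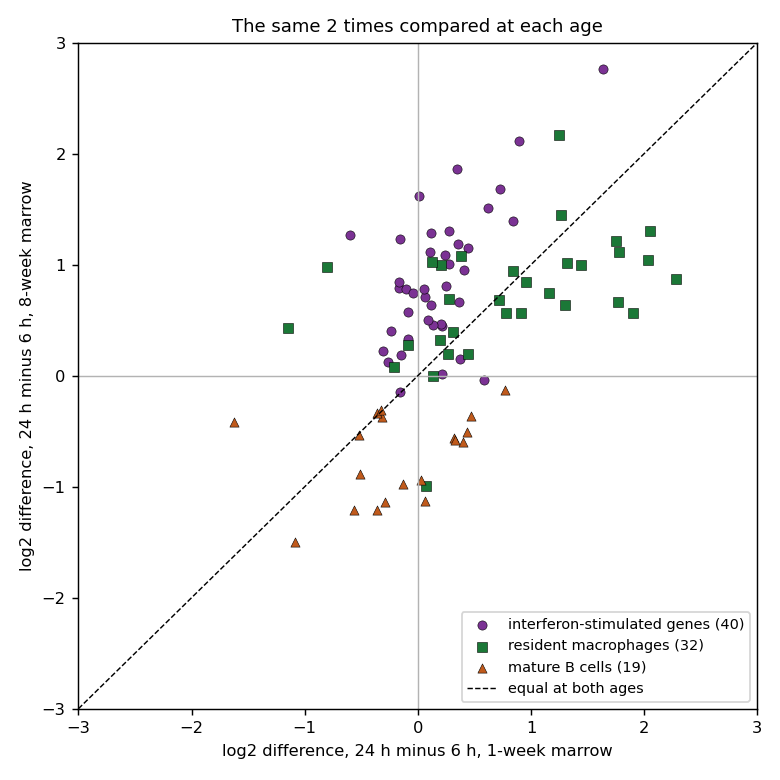
Difference between 24 h and 6 h (log2) at 1 week (horizontal) and at 8 weeks (vertical) for interferon-stimulated genes, resident macrophage genes and mature B-cell genes, 1 point per gene, with a dashed line where both ages are equal. Of the 40 interferon-stimulated genes 33 rose at 8 weeks and most lie above the line, and all 19 mature B-cell genes lie below 0 at 8 weeks.

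The 12 arrays of the other groups enter the estimate of spread, and 3 arrays against 3 leave some small differences undetected. In simulated data 72 of 100 genes changed by 0.5 log2 were recovered and 93 of 100 changed by 1 log2, with 6 false calls. Far fewer of the 11884 genes were changed there than were called here. The adjusted threshold was therefore stricter there, and these rates do not carry over to this comparison. Both times share only 1 of the 5 slides, with 6 h replicate 2 and 24 h replicate 3 on it. On that slide 4231 of the 4236 genes had the same sign, which includes the arrays' own part in the comparison.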

How the data were processed

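Expression was measured on 18 one-colour Agilent arrays (Cy3) with total RNA from marrow. The deposited scanner files hold, per the file headers, background-subtracted processed intensities from Agilent Feature Extraction 9.5.1.1 (11.5.1 per the submitters' processing notes), with flags for spots well above background, saturated or outlying. The series' value table holds the authors' log2 values, centred on each probe; differences between arrays in it followed those of the deposited intensities.

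Levels are log2 processed intensity minus each array's 75th percentile over probes that are not controls. Flagged outlying spots were left out, and spots of a probe were averaged. Probes were named through RefSeq accessions (24844 of 41174 probes, 17178 genes), and the brightest probe stood for a gene. A gene was tested where some group had its signal well above background in every replicate (11884, with 5284 too dim and 10 left out for an outlying spot). The test was limma 3.58.1 under R 4.3.3 (1 mean per group over 18 arrays, empirical Bayes with an intensity trend, two-sided, Benjamini-Hochberg over all tested genes), and adjusted p under 0.05 was a call. The age difference is the interaction from the same fit. The fit was tested on simulated data. The p-values measure the spread between these arrays.

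The comparison and the 43 gene lists were chosen with earlier results of these data known, and no set test was run. The rule for named genes took the 15 highest and 15 lowest differences, up to 4 members of each list with the smallest adjusted p, a list of 13 genes always given, and the 6 highest and 6 lowest age differences. Hba-a1, Vpreb1, Perp, Xpc, Ckap2, Kif11, Slc40a1, Spic, Ctsb, Clec4f, Ccl3, Ccl6, Ccl7, Ccl8, Cxcl16, Cxcr4, Cxcr5, Kitl, Comp, Adipoq, Car1, Bpgm, Hspa1a and Hspa1b lie outside it and were chosen after their values were seen. Equal replicate numbers in different groups did not pair the arrays: the same-number correlations of deviations at 6 h and 24 h were -0.01, -0.16 and -0.24. Of 19 alternatives tried, 1 was chosen after seeing the data.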

Additional observations from a re-analysis of the deposited data

Results flagged for a closer look

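For 63 of the 152 genes considered in the text the difference between 24 h and 6 h differed between the ages, by limma's test of the interaction with Benjamini-Hochberg adjustment over all 11884 tested genes. This is what set these results apart, and the values below are the 8-week difference minus the 1-week difference (log2). Genes chosen for the size of this value, or found in lists chosen with earlier results known, are no independent support for it. Over all 11884 tested genes 2350 differed (19.8%), and the 152 include genes chosen for the size of this value. Slc2a4 and Adipoq are not counted in the 152, and Slc2a4 differed too (-0.53, adjusted p = 0.038).

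For 11 of the 63 some group of the 4 compared had no array well above background, so the size of the difference and its rank are not measured and the adjusted p of the fitted difference alone is given. The fitted difference was higher at 8 weeks for H2ap (0.00848), Fabp2 (0.00388), Aqp5 (0.0155), Bmper (0.0304), Olfr1199 (0.00957), Usp26 (0.0495) and Ccl7 (0.0049), and lower for Ido2 (0.0267), Cys1 (0.00381), Angptl7 (0.00622) and Krtap31-1 (0.0434).

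Of the genes named for the size of this difference, those measured in all 4 groups had values of 2.72 for Ifit3b, -1.61 for Dnah2 and -1.51 for Mageb16. Ifit3b, an interferon-stimulated gene well above background on 1 of 3 arrays at each time at 1 week, rose by 2.52 at 8 weeks and differed by -0.19 at 1 week. Of the probes high at 6 h, those of Fgf2 (2.07), Zc3h3 (1.73) and Plcd3 (1.51) came down less at 8 weeks. For Ddx25, Tgm5, Pdpk1, Trim55, Myo1e, Lifr and Itga1 the difference between the ages did not pass. Fgf2 was well above background on 1 of 3 arrays at 24 h at 1 week and on 2 of 3 at each time at 8 weeks.

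Macrophage and monocyte genes had values of -1.41 for Fcna, -1.34 for Timd4, -1.11 for Hmox1, -0.99 for C1qc, -0.76 for Cd5l, -0.67 for C1qb, -0.66 for Vcam1 and -0.41 for Spic, with the larger rise at 1 week in each. Ctsb (0.30) and Cd14 (0.64) went the other way, and of 16 resident macrophage genes that differed 7 were higher at 8 weeks. Among inflammatory and chemokine genes the values were 1.46 for Ccl4, 1.09 for Cxcl16, 0.82 for Ccl2, 0.51 for Nfkb2, 0.48 for Jun, 1.13 for Ifit3, -0.88 for Cxcr5, -0.89 for Il18, -1.07 for Fosb and -1.18 for Gbp8. For stroma and fat they were 0.92 for Igfbp5, 0.71 for Fstl1, 0.54 for Lpl and -0.77 for Igf1. The potassium channel gene Kcnj10, of none of these groups, had -1.03.

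Among p53 targets, cell death and cell cycle genes the values were 0.40 for Bax, 0.39 for Dglucy, -0.77 for Bmf, 0.70 for E2f1, 0.42 for Plk1, 0.28 for Cdc20 and 0.29 for H2ax. Lymphoid genes had 1.01 (Dntt), 0.61 (Fkbp11), 0.38 (Mzb1) and -0.83 (Cd74). Myeloid, red cell, platelet and progenitor genes had 0.67 (Mpo), 0.59 (Ctsg), 0.44 (Fcnb), -0.34 (Ctsc), -0.54 (Bpgm), 1.08 (Nrgn) and 1.31 (Ly6a). The remaining values were 0.43 for Fdft1, 0.36 for Prdx1 and -0.51 for Hsp90aa1.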

How the results depend on the processing

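Across 19 alternatives the number of genes that changed stayed between 3364 and 4457, against 4236, and none of the genes named turned its sign while called. The count of genes that changed at least 2-fold was less stable. It was 83 with normexp background correction on the median signal, an alternative chosen after seeing the data because the planned mean signal is not used here, 616 with no filter on dim genes and 120 with a stricter one, against 227. The number of genes that differed between the ages was 1446 with normexp and 1490 with slide as a fixed block, against 2350. Leaving out each of the 6 arrays in turn gave 3364 to 3919 changed genes, 1625 to 1936 rising and 1688 to 1997 falling, 191 to 290 at least 2-fold, and 1654 to 2162 that differed between the ages. Without 1-week control replicate 2 4429 genes changed and 2537 differed between the ages. For 36 of the 4236 changed genes the mean over a gene's probes had the opposite sign to its brightest probe. With the series' value table, fitted with no intensity trend because its values are centred on each probe, 4223 genes changed.

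With the replicate number as a block 4174 genes changed (2062 rising, 2112 falling), 231 at least 2-fold, and 2253 differed between the ages, although the numbers share no mouse and did not pair the arrays. The block lost the calls of Bpgm (adjusted p = 0.0539) and Cxcr5 (0.0509).

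With slide as a fixed block 6 of 11 MHC class II genes, 11 of 16 MHC class I genes and 5 of 19 osteoblast genes rose, against 3, 6 and 2. The falls of p53 targets, mitosis genes, B-cell precursors and red cell genes, and the rises of resident macrophages, niche factors, heat shock, the respiratory chain and interferon-stimulated genes, stayed within 1.5 times under each alternative. Counts of 2 or fewer in the other direction did not: macrophage falls ranged from 0 to 3, red cell rises from 1 to 3 and interferon-stimulated falls from 0 to 3, against 2 each, and niche falls from 0 to 1 and rises of B-cell precursors from 0 to 1, against 1 and 0. Precision is limited by having 3 arrays a group, and genes near background carry the widest errors. The causes of these changes were not tested.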

Other observations

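Genes of antigen presentation rose in part. Of 16 MHC class I genes 6 rose (37.5%, against 17.7% of all tested genes), none fell and 10 did not pass, with Erap1, which trims peptides for class I, at 0.41 and B2m, the light chain of class I, at 0.38 (adjusted p = 0.000272 and 0.00111, limma). Of 11 MHC class II genes 3 rose (27.3%), none fell and 8 did not pass, H2-Ab1 by 0.46 (adjusted p = 0.00405). Of 24 endothelial genes 4 rose and none fell, a share of 16.7% that is near the background. Of 15 fetal and neonatal growth genes 3 rose, led by the imprinted gene Mest (0.89, adjusted p = 0.000794). The counts of osteoclast genes (1 of 15 rose, 1 fell) and of mast cell, basophil and eosinophil genes (1 of 20 rose, 2 fell) were below the background.

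Of 19 glucocorticoid-induced and metallothionein genes 4 fell and 1 rose. Ddit4, a brake on mTOR that p53, hypoxia and glucocorticoids all induce, read 4.35, 4.25 and 4.25 at 6 h and 3.50, 3.07 and 3.30 at 24 h, a fall of 0.99 (adjusted p = 3.01e-07) from above towards its control mean of 2.89 ± 0.10 (SD, n = 3). Tsc22d3, also called Gilz, fell by 0.39 (adjusted p = 0.00299). Per1, which glucocorticoids induce too, fell as given above. No corticosterone value belongs to these data.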
